A study of Sus scrofa with 18 samples.

Results

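Genes of the proteasome and its caps, inhibitor and assembly factors were followed through acute failure of the right ventricle in pigs. Members were the genes whose single symbol in the probe table begins with PSMA to PSMG and a digit, each read from the probe set that was brightest on average over the arrays. This gave 40 of 6765 named genes, of which 29 encode constitutive subunits and 4 encode immunoproteasome subunits. The other 7 were the alternative caps PSME3 and PSME4, the inhibitor PSMF1, and the assembly chaperones PSMG1, PSMG3, PSMD5 and PSMD10. PSMB9, PSMC4 and PSMD7 are not listed in the probe table used here and were not analysed.

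The proteasome degrades most ubiquitin-tagged proteins of the cell. A barrel-shaped 20S core holds the proteolytic sites inside stacked alpha and beta rings, and a 19S cap with ATPases recognises, unfolds and feeds in the substrate. Interferon and inflammation induce the alternative catalytic subunits PSMB8, PSMB9 and PSMB10, which replace PSMB5, PSMB6 and PSMB7 in newly made cores, and the 11S cap of PSME1 and PSME2. That form, the immunoproteasome, produces peptides for presentation on class I molecules, a task not exclusive to it. The constitutive form turns over sarcomeric and damaged proteins in heart muscle.

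Right ventricular tissue (free wall) was taken from 9 mixed-breed pigs (Hampshire, Yorkshire and Swedish Landrace) before coronary ligation, as baseline, and once more when the heart was in failure. For 6 pigs (6, 8, 9, 11, 12 and 13, called label set 1) the failure sample is labelled with 120 min of ischemia. For the other 3 (5, 10 and 14, label set 2) the labels define failure by a right atrial pressure above 20 mmHg and give a weight of 30 to 40 kg. The labels used here name no age, sex or animals without ligation, so ischemia cannot be told apart from time under surgery. The 18 Affymetrix arrays gave log2 intensities with medians from 5.59 to 5.66. All 9 measured cardiomyocyte markers, among them MYH7, TNNT2 and MYL2, lay above the array median on 18 of 18 arrays. So did 4420 of the 6765 named genes. In a piece of tissue, fewer cells of a type and less RNA per cell cannot be told apart.

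Proteasome genes stayed near their baseline level, and no member passed the threshold between failure and baseline (adjusted p of 0.05 in limma with pig as a block, Benjamini-Hochberg over all 23935 probe sets). The count was 0 of 40, where the whole array had 16 of 23935 (0.0668%). Before adjustment 2 members had a p under 0.05, PSMB8 with lower and PSME4 with higher values in failure. That level was passed by 3.06% of all named genes toward lower and by 2.48% toward higher values. An unmoderated paired test called 0 members after adjustment and 3 before it. Of the 40 mean changes 29 lay below 0 and 11 above, where 53.6% and 46.4% of all named genes did. For 40 of 40 members the 95% interval lay within a 1.5-fold change in either direction, as it did for 6692 of the 6765 named genes. On 18 of 18 arrays 39 members lay above the array median, as did 4420 of the 6765 named genes. PSMB8 did so on 17 arrays.

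**Figure D1:**
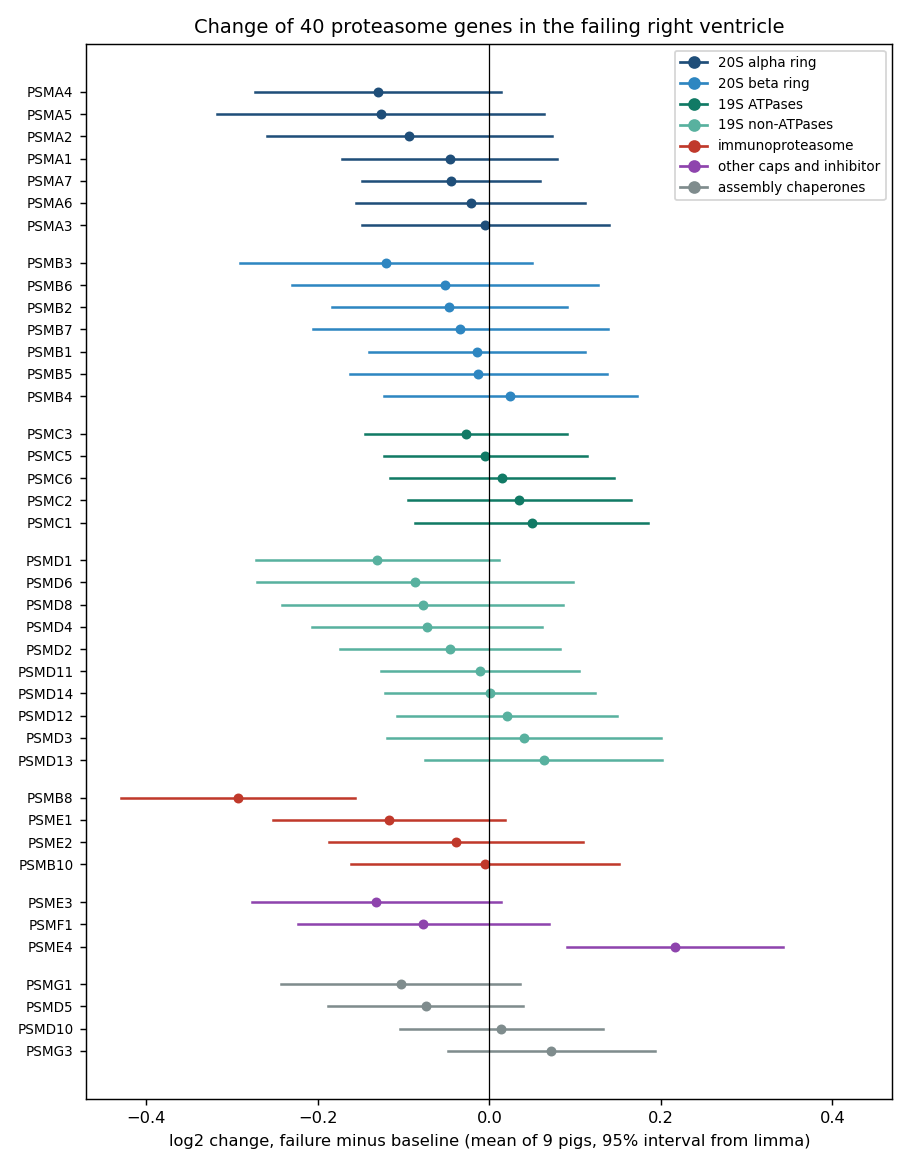
Mean log2 change from baseline to failure (x axis) of each of the 40 proteasome genes, with its 95% interval from limma over 9 pigs, coloured by role in the complex. The intervals of PSMB8 (below 0) and PSME4 (above 0) leave out 0, and those of the other 38 include it.

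PSMB8, the immunoproteasome subunit that takes the place of PSMB5, was lower in failure in 9 of 9 pigs. At baseline its log2 intensity ran from 6.02 through a median of 6.75 to 8.99, and in failure from 5.54 through 6.41 to 8.59. The groups overlapped widely, since animals differed at baseline with an SD of 0.95, and pig 10 was highest in both states. Within pigs the log2 changes were -0.23 in pig 5, -0.17 in pig 6, -0.12 in pig 8, -0.56 in pig 9, -0.40 in pig 10, -0.22 in pig 11, -0.34 in pig 12, -0.08 in pig 13 and -0.52 in pig 14. Pigs 9 and 14 had the lowest changes and pig 13 the one nearest to 0. The mean change of -0.29 (SE 0.06, 95% interval -0.43 to -0.16), a level 1.23-fold lower, did not pass (adjusted p = 0.203 in limma).

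The other immunoproteasome genes were closer to baseline. PSME1, a subunit of the 11S cap, had log2 intensities from 9.25 through 9.50 to 10.29 at baseline and from 9.02 through 9.33 to 10.14 in failure. The groups overlapped, although 8 of 9 pigs were lower in failure and only pig 9 was higher (0.18). Its mean change was -0.12 (SE 0.06, adjusted p = 0.853 in limma). PSME2, its partner in that cap, ran from 9.22 through 9.32 to 10.53 at baseline and from 9.20 through 9.37 to 10.18 in failure. It was higher in 4 pigs and lower in 5, with a mean change of -0.04 (95% interval -0.19 to 0.11). PSMB10, which replaces PSMB7, ran from 7.63 through 7.86 to 8.72 at baseline and from 7.72 through 7.84 to 8.27 in failure. It also was higher in 4 pigs and lower in 5, from -0.45 in pig 10 to 0.30 in pig 5, with a mean of -0.00486 (-0.16 to 0.15). Being lower in at least 8 of 9 pigs thus held for 2 of these 4 genes and for 0 of 29 constitutive subunits, against 2% of all named genes.

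The constitutive partners PSMB5, PSMB6 and PSMB7 had no common direction over the animals. PSMB5, the chymotrypsin-like subunit, had log2 intensities from 10.08 through 10.45 to 10.62 at baseline and from 9.76 through 10.46 to 10.73 in failure. Failure spanned the wider range, with pig 5 lowest and pig 9 highest, and the mean change was -0.01 (95% interval -0.16 to 0.14). PSMB6, the caspase-like subunit, ran from 10.08 through 10.46 to 10.70 and then from 9.73 through 10.43 to 10.82, with changes from -0.43 in pig 13 to 0.44 in pig 9 and a mean of -0.05 (-0.23 to 0.13). PSMB7, the trypsin-like subunit, ran from 10.07 through 10.31 to 10.47 and then from 9.83 through 10.32 to 10.58, with changes from -0.48 in pig 5 to 0.44 in pig 9 and a mean of -0.03 (-0.21 to 0.14). Each of the 3 genes was higher in 4 pigs and lower in 5. PSME3, which forms a nuclear cap of its own, ran from 6.99 through 7.71 to 7.99 at baseline and from 6.50 through 7.60 to 7.93 in failure. It was lower in 7 of 9 pigs, with a mean change of -0.13 (SE 0.07, adjusted p = 0.837 in limma). For all 4 of these genes pig 9 had the highest change, and for 3 of them pig 5 had the lowest.

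**Figure D2:**
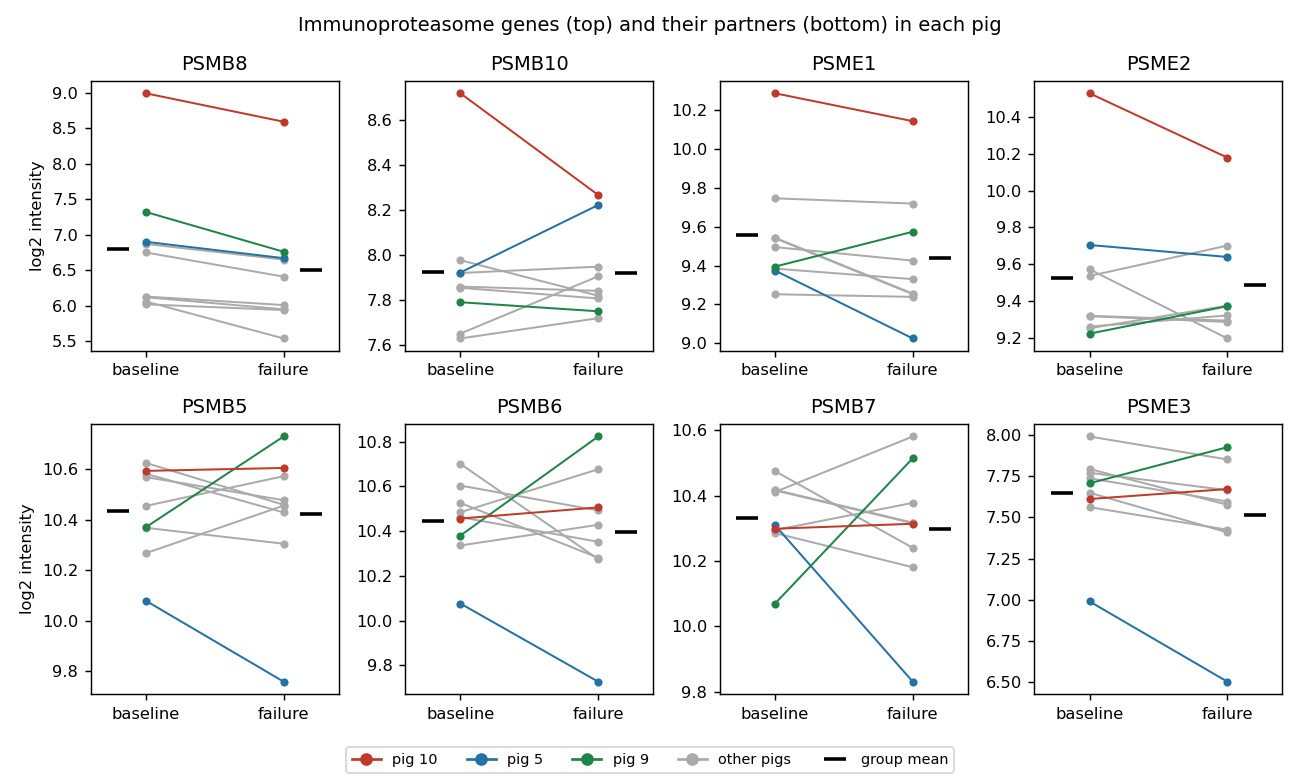
Log2 intensity at baseline and in failure (x axis) in each pig for the 4 immunoproteasome genes (top row) and the 4 genes they are compared with (bottom row), with a line per pig and black bars for the group means of 9 pigs. Pig 10 is highest at baseline in the 4 top panels, at 8.99 for PSMB8, and pig 5 is lowest in failure in the 4 bottom panels, at 9.76 for PSMB5.

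Each immunoproteasome gene was then set against its partner within animals. The change of PSMB8 minus that of PSMB5 was -0.28 ± 0.35 (SD, n = 9; 95% interval -0.55 to -0.01) and lay below 0 in 7 of 9 pigs, from -0.92 in pig 9 to 0.09 in pig 5. It did not pass (two-sided p = 0.0312 in an exact permutation test that flips signs by pig, adjusted p = 0.125 over 4 pairs, where 9 pigs allow no p under 0.00391). For PSMB10 minus PSMB7 the difference was 0.03 ± 0.39 (95% interval -0.27 to 0.33; exact permutation test, adjusted p = 0.844), with pig 5 highest at 0.78. For PSME1 minus PSME3 it was 0.01 ± 0.13 (-0.09 to 0.12; exact permutation test, adjusted p = 0.844). For PSME2 minus PSME3 it was 0.09 ± 0.29 (-0.13 to 0.31; exact permutation test, adjusted p = 0.672). The last 2 comparisons share PSME3. As groups, the 4 immunoproteasome genes had a median change of -0.08 with 4 lower, and the 29 constitutive subunits one of -0.03 with 21 lower. The median over all named genes was -0.00659. The constitutive median was -0.01 without pig 5, -0.00989 without pig 13, and -0.05 without pig 9 or pig 14. Over the fits that left out 1 pig the immunoproteasome median ran from -0.11 to -0.05, the latter without pig 11. Within pigs the immunoproteasome median lay below the constitutive one in 6 of 9, with a mean difference of -0.06 ± 0.16 (SD, n = 9), which is smaller than its spread between animals.

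PSME4, a large nuclear cap that acts on acetylated histones, had the highest change of all members. Its log2 intensity ran from 8.22 through 8.60 to 8.96 at baseline and from 8.42 through 8.79 to 9.25 in failure. The groups overlapped. The change was 0.43 in pig 5, 0.29 in pig 6, 0.33 in pig 8, 0.27 in pig 9, 0.13 in pig 10, 0.20 in pig 11, -0.06 in pig 12, 0.24 in pig 13 and 0.12 in pig 14, so that only pig 12 was lower. The mean of 0.22 (SE 0.06, 95% interval 0.09 to 0.34), a level 1.16-fold higher, did not pass (adjusted p = 0.437 in limma). PSME4 was the 1 member that was higher in at least 8 of 9 pigs, which held for 1.86% of all named genes.

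The form of the deposited values bears on both genes. PSMB8, PSME4 and PSMA7 are the 3 members whose values carry at most 2 decimals on all arrays, as do 1467 of the 23935 probe sets. Of these 1467 probe sets 73.8% had an unadjusted p under 0.05, against 1.72% of the 22468 with more decimals. All 16 probe sets past the threshold were among the former (1.09%). Being lower in at least 8 of 9 pigs held for 22.4% of the former and being higher for 23.6%. The reason for the fewer decimals is not given in the sources used here, and its part in the changes of PSMB8 and PSME4 was not tested. PSMA7, a subunit of the alpha ring, had a change of -0.04 (SE 0.05, adjusted p = 0.947 in limma). That SE is moderated by the variance of all probe sets. The within-pig changes of PSMA7 had an SD of 0.05 (n = 9), with 7 pigs lower and 1 higher.

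Among the constitutive subunits the mean changes ran from -0.13 to 0.06, and their adjusted p-values in limma from 0.831 upward. In the alpha ring, which gates the core, 7 of 7 genes lay lower, from -0.13 for PSMA4 (SE 0.07) to -0.00490 for PSMA3, with a median of -0.05. In the beta ring 6 of 7 lay lower, from -0.12 for PSMB3 to 0.02 for PSMB4. Of the 19S ATPases, which unfold the substrate, 3 of 5 lay higher, from -0.03 for PSMC3 to 0.05 for PSMC1. Of the other 19S subunits 6 of 10 lay lower. PSMD1, a scaffold of the 19S base, had levels from 9.86 through 10.28 to 10.52 at baseline and from 9.44 through 10.19 to 10.31 in failure. These ranges overlap, and its change was -0.13 (SE 0.07, adjusted p = 0.831 in limma, lower in 7 of 9 pigs). PSMD13, a subunit of the 19S lid, had levels from 9.38 through 9.55 to 9.68 and then from 9.37 through 9.59 to 9.83. Here too the ranges overlap, and the change was 0.06 (SE 0.06, adjusted p = 0.940 in limma, higher in 6 of 9 pigs).

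Further probe sets were present for 4 members. The second of PSMD1 had a change of -0.11 (SE 0.08), near that of the first. The 2 others of PSMC2 had changes of 0.00501 and -0.00769, against 0.04 for the one used. Those of PSMD11 had -0.20 (SE 0.18) and 0.01, against -0.01, so the probe set that departed also had the widest error. The second probe set of PSMF1 had -0.16 (SE 0.10).

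Assembly factors and the inhibitor were as close to baseline. PSMG3, part of a chaperone that builds the alpha ring, had levels from 7.29 through 7.61 to 7.92 at baseline and from 7.23 through 7.74 to 7.93 in failure. The ranges overlap, and the change was 0.07 (SE 0.06, adjusted p = 0.908 in limma, higher in 6 of 9 pigs). PSMG1, of another chaperone of that ring, had a change of -0.10 (SE 0.06) and was lower in 7 of 9 pigs. PSMD5 and PSMD10, which help to assemble the base of the 19S cap, had changes of -0.07 and 0.01. PSMF1, which inhibits the core in vitro, had a change of -0.08 (SE 0.07).

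Within single animals the constitutive subunits shifted together, and animals differed in the direction. In pig 14, 28 of 29 constitutive subunits were higher in failure (median change 0.12), and in pig 9, 24 were higher and 4 lower (median 0.19). In pig 5, 25 of 29 were lower (median -0.23), as were 25 in pig 12 (median -0.14), 23 in pig 13 (median -0.15) and 22 in pig 11 (median -0.05). Pigs 6, 8 and 10 were mixed, with 18, 14 and 10 of 29 higher. Of all named genes 54.4% were higher in pig 14, 49.6% in pig 9 and 41.2% in pig 5. The share was 47.7% in pig 12, 49.5% in pig 13 and 51.2% in pig 11. In pigs 6, 8 and 10 it was 55.7%, 53.4% and 47.2%. The median of all named genes lay between -0.06 and 0.03 in the 9 pigs, closer to 0 than the constitutive median in every pig but 6 and 8. Pigs 5 and 14, at opposite sides, both belong to label set 2. PSMB8 took another order, with its lowest changes in pigs 9 and 14, where most constitutive subunits were higher.

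**Figure D3:**
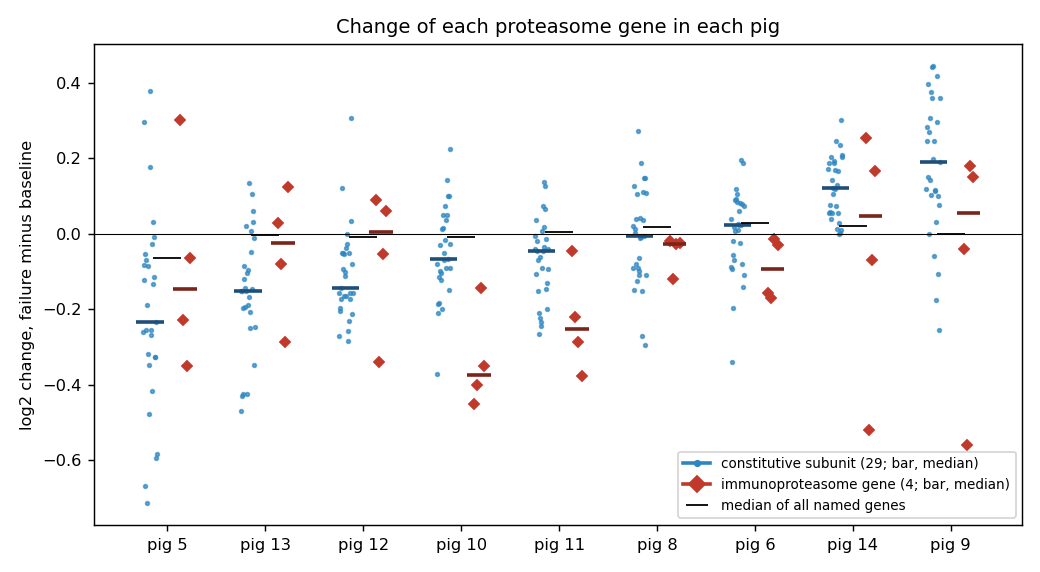
Log2 change from baseline to failure (y axis) of each constitutive subunit (blue points, n = 29) and each immunoproteasome gene (red diamonds, n = 4) in each pig, with coloured bars for their medians and a black bar for the median of all named genes. The constitutive median runs from -0.23 in pig 5 to 0.19 in pig 9.

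These shifts moved with a sign of RNA quality. Control probe sets at the 3' end of GAPDH read higher than those at its 5' end as RNA is degraded, and their log2 difference was 0.24 ± 0.56 higher in failure than at baseline (SD, n = 9). Its change was 1.18 in pig 13, 0.94 in pig 5 and 0.55 in pig 12, where most constitutive subunits were lower, and -0.44 in pig 9 and -0.33 in pig 14, where most were higher. Pigs 11 and 10 had most subunits lower too (22 and 19 of 29), at GAPDH changes of -0.09 and 0.00160. Pigs 8 and 6, with 15 and 11 of 29 lower, had GAPDH changes of 0.25 and 0.07. Over the 9 pigs the constitutive median and the GAPDH change had a Pearson r of -0.877 and a Spearman rho of -0.85. Without pigs 13 and 5, the farthest in the GAPDH measure, the r of the other 7 was -0.864, and that of the 6 pigs of label set 1 was -0.857. This is a description of 9 animals, and both measures come from the same arrays. The part of RNA quality in these shifts was not tested. For the median of all named genes r was -0.549 and rho -0.483. With 2 further pairs of GAPDH controls the constitutive r was -0.769 and -0.603, with the actin controls -0.789 and with those of EF1A -0.752. The pair with -0.603 had a mean change of 0.08 instead of 0.24.

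Single constitutive subunits had an r below 0 in 29 of 29 and below -0.5 in 19 of 29 (65.5%), against 20.4% of all named genes. The lowest were PSMA1 (-0.874), PSMA5 (-0.869) and PSMD8 (-0.869). An r below 0 held for 3578 of the 6765 named genes. Cardiomyocyte markers lay below 0 in 9 of 9, with a median of -0.48. Of 18 genes of the interferon response and antigen processing 0 lay below 0 (median r 0.47). Of 5 endothelial markers 1 did so (median r 0.62). The immunoproteasome median had r = -0.00809, with PSME1 at -0.654 and PSMB8 at 0.687. With the GAPDH difference as a covariate the constitutive median change was 0.01, with 10 of 29 lower instead of 21, and the immunoproteasome median was -0.06. PSMB5, PSMB6 and PSMB7 then lay above 0, at 0.06, 0.05 and 0.04. PSMB8 lay at -0.34 (SE 0.06, adjusted p = 0.114 in limma) and PSME4 at 0.21 (SE 0.06, adjusted p = 0.550 in limma), and 0 of 40 members passed. The covariate was itself higher in failure in 6 of 9 pigs and lower in 3, so this fit cannot fully separate it from failure.

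**Figure D4:**
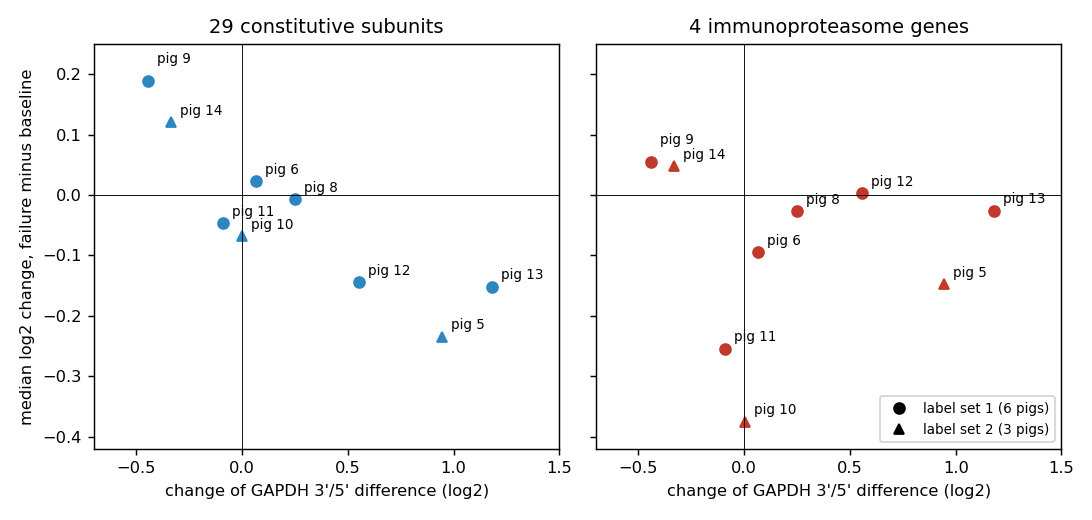
Median log2 change of the 29 constitutive subunits (left) and of the 4 immunoproteasome genes (right) against the within-pig change of the log2 difference between 3' and 5' GAPDH control probe sets, with a point per pig and its shape giving the label set. The left points descend from pig 9 (0.19) toward pig 5 (-0.23), with r = -0.877, and the right points have r = -0.00809.

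At baseline 1 animal, pig 10, had the highest level of all 4 immunoproteasome genes. Their median SD over the 9 pigs was 0.37, against 0.18 for the constitutive subunits and 0.21 for all named genes. Without pig 10 these values were 0.17, 0.18 and 0.21, with PSMB8 alone at 0.50. PSMB8 lay at 8.99 there and from 6.02 to 7.32 in the other 8 pigs. PSMB10 lay at 8.72 against 7.63 to 7.98, and PSME1 at 10.29 against 9.25 to 9.75. PSME2 lay at 10.53 against 9.22 to 9.70. In failure the same animal was again highest for all 4. Of the constitutive subunits 9 of 29 (31.0%) were highest in pig 10 at baseline, and of all named genes 10.6%. The median distance from each gene's median over pigs was 1.04 for the immunoproteasome genes of pig 10 and 0.09 for its constitutive subunits. Pig 5 had the lowest baseline level for 24 of 29 constitutive subunits (82.8%), against 24.5% of all named genes. It was also lowest for 6 of 9 cardiomyocyte markers (66.7%), 6 of 11 ubiquitin-conjugating enzymes (54.5%) and 2 of 2 ubiquitin genes. The log2 difference of GAPDH controls in pig 5 was 2.61 at baseline and 3.55 in failure, the highest of the 9 pigs in both states. The next highest were 1.49 in pig 11 at baseline and 2.17 in pig 13 in failure.

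Genes of the interferon response and of antigen processing had their peak in the same animal. Of 18 measured genes of such a list, 17 were highest in pig 10 at baseline, with a median distance of 2.03 from each gene's median. TAP1, a subunit of the peptide transporter whose gene lies next to PSMB8 in the RefSeq gene order, was at 9.84 in pig 10 and from 7.76 to 8.50 in the others. T and NK lymphocyte markers were highest in pig 10 in 4 of 9, with a median distance of 0.13, and monocyte and macrophage markers in 0 of 3. The part of these cells in the levels of pig 10 was not tested.

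**Figure D5:**
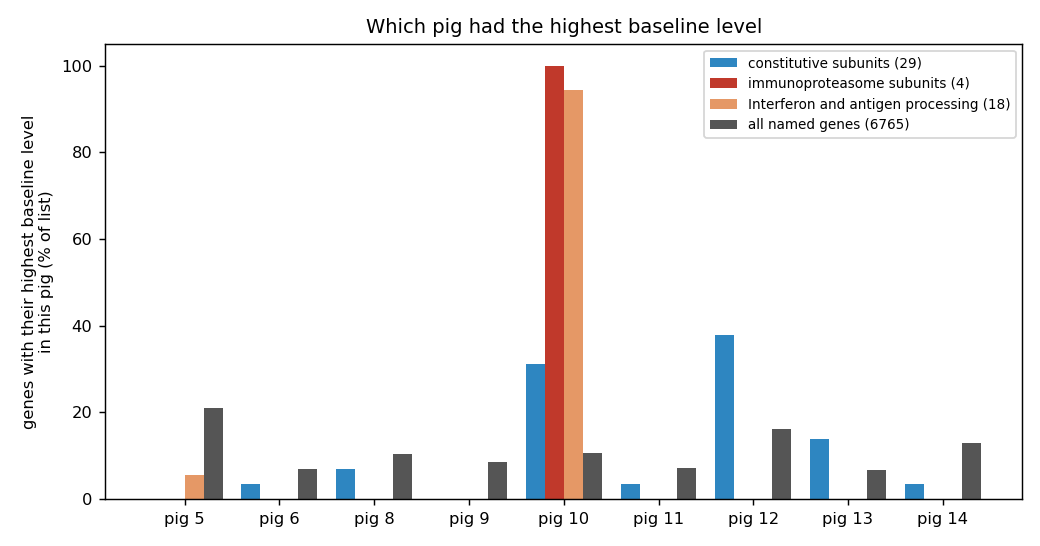
Share of the genes of each list (y axis, percent) whose highest baseline level among the 9 pigs was found in the pig on the x axis. In pig 10 this was the case for 4 of 4 immunoproteasome genes and 17 of 18 interferon and antigen processing genes, against 10.6% of all named genes.

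In failure 17 of 18 genes of the interferon list lay lower, with a median change of -0.15, where 53.6% of all named genes lay lower. In limma 0 passed, and 6 had an unadjusted p under 0.05 toward lower values, as did 3.06% of all named genes. IFIT3, an antiviral effector, had a change of -0.33 (SE 0.11, adjusted p = 0.591 in limma) and TAP1 one of -0.25 (SE 0.09, adjusted p = 0.613 in limma). Both are among the 3 of 18 with at most 2 decimals. With the GAPDH difference as a covariate the median change of the list was -0.21, with 18 of 18 lower. In that fit 3383 of the 6765 named genes lay lower. Animals differed in direction. Without the covariate the median change of the list was 0.07 in pig 5, 0.03 in pig 6, 0.05 in pig 12 and 0.07 in pig 13. It was -0.10 in pig 8, -0.15 in pig 9, -0.17 in pig 11 and -0.28 in pig 14. In pig 10 the median change was -0.79 for this list and -0.38 for the immunoproteasome genes, in both cases the lowest of the 9 pigs. Pig 10 was picked out by its high baseline, which the change subtracts, so these changes are not independent of that choice. IRF1, a transcription factor that induces immunoproteasome genes, had a mean change of 0.000256, from -0.77 in pig 10 to 1.45 in pig 5. Without pig 10 the immunoproteasome median change was -0.06, and PSMB8 lay at -0.28 (adjusted p = 0.463 in limma).

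Markers of other cells were measured beside PSMB8, and their part in its change was not tested. Of the T and NK lymphocyte markers 8 of 9 lay lower, as did 53.6% of all named genes, and 0 passed in limma. Toward lower values 4 of 9 had an unadjusted p under 0.05, against 3.06% of all named genes. Of the 9 markers 3 are deposited with at most 2 decimals, and 0 lay above the array median on all arrays. CD8A had a change of -0.49 (SE 0.12, adjusted p = 0.326 in limma) and KLRK1 one of -0.36 (SE 0.10, adjusted p = 0.460 in limma), both among those 3. The log2 of their summed intensity ran from 8.02 to 8.44 at baseline and from 7.74 to 8.45 in failure, and was lower in 8 of 9 pigs. CD8A and KLRK1 lay above the array median on 0 of 18 arrays. KLRK1 lay below the 25th percentile on 7 of 18 arrays and CD3G on 17. Monocyte and macrophage markers lay lower in 1 of 3, with summed levels from 8.76 to 9.57 and from 8.56 to 9.75. Neutrophil markers lay lower in 2 of 3, with S100A12 below the 25th percentile on all 18 arrays, and the 1 measured B lymphocyte marker, CD79B, had a change of 0.00125. Endothelial and fibroblast markers had median changes of 0.01 and 0.07. Red blood cell genes lay lower in 5 of 5, as did 53.6% of all named genes, and 3 of them passed, as did 7 of 6765 named genes. Of the 5 genes 4 are deposited with at most 2 decimals, and those that passed are among these. HBB, deposited with more decimals, was lower in 6 pigs and higher in 3 (adjusted p = 0.770 in limma).

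The rest of the ubiquitin system was near baseline too, with 0 genes past the threshold in limma in each of its lists. Of 5 measured proteasome partners outside the naming rule 4 lay lower, with TXNL1, a redox protein bound to the 19S cap, and SEM1, a small 19S subunit, both at -0.04. The ubiquitin genes UBB and RPS27A had changes of -0.06 and -0.00760. Of 11 ubiquitin-conjugating enzymes 8 lay lower. UBE2C, which works with the cell cycle ligase, had a change of -0.20 (SE 0.08, adjusted p = 0.705 in limma, lower in 8 of 9 pigs) and is deposited with at most 2 decimals. It was the 1 gene of these lists with an unadjusted p under 0.05. UBE2D2 had a change of -0.12 (SE 0.07).

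Of 7 measured ligases of heart and muscle 4 lay lower. FBXO32, the atrophy ligase atrogin, had a change of -0.05 (95% interval -0.20 to 0.11) and ranged over animals from 9.39 in pig 5 to 11.03 in pig 13 at baseline. TRIM55, a ligase of the sarcomere, had a change of 0.10 (SE 0.06) and ITCH one of 0.09 (SE 0.05). Of 5 measured shuttle and segregase genes 4 lay higher. UFD1, a cofactor of the segregase, had a change of -0.11 (SE 0.08), and FAF1 lay below the 25th percentile on all 18 arrays. The transcription factors STAT3 and FOXO3 had changes of 0.07 each.

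The response was also compared between the 6 pigs of label set 1 and the 3 of label set 2. Tested as an interaction in limma, 0 of 40 members passed and 0 of 40 had an unadjusted p under 0.05, against 4.51% of all named genes. Over the whole array 0 of 23935 probe sets passed (0%). PSMD14, the deubiquitinase of the 19S lid, had the smallest p of the members, with a change of -0.05 ± 0.10 (SD, n = 6) in label set 1 and 0.11 ± 0.12 (SD, n = 3) in label set 2 (adjusted p = 0.924 in limma). PSMD2, a scaffold of the 19S base, followed with 0.01 ± 0.11 (SD, n = 6) and -0.16 ± 0.16 (SD, n = 3) (adjusted p = 0.926 in limma). PSMB8 had changes of -0.25 ± 0.18 (SD, n = 6) and -0.38 ± 0.15 (SD, n = 3) and was lower in every pig of both.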

How the data were processed

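RNA of 18 samples (9 pigs, baseline and failure) was hybridised to Affymetrix arrays. Values were deposited as a log2 intensity for each probe set. The submitters' processing notes name Partek, and no source used here gives the background correction or normalization. Of 24123 probe sets, 188 controls were left out and 23935 tested as deposited. The probe table gave 1 gene for 10069 probe sets, several for 198 and lists none for 13668. All 40 members matched the RefSeq gene table (Sscrofa11.1), used for names and neighbours.

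Failure was compared with baseline in limma 3.58.1 (R 4.3.3) with pig as a block and Benjamini-Hochberg adjustment over all probe sets. The pairing comes from the pig numbers in the labels, and deviations of same-pig samples correlated at 0.449 to 0.750, for 9 of 9 pigs best with their own. P-values of this fit and of the gene pairs rest on the spread of within-pig changes over these 9 animals, whose number limits the precision. In limma that spread is moderated by the variance of all probe sets. Pairs of genes were compared by an exact sign-flip test. PSMB9 is not listed, so adjustment ran over 4 pairs instead of 5. The fit was tested on simulated data.

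Members and lists were chosen with earlier results of these data known. Values are given for immunoproteasome genes, their partners and the 3 members with the smallest p in each direction. Of each pathway list the 2 genes with the smallest p are named, and IRF1, TAP1 and FBXO32. In the label set test the 2 members with the smallest p are named. Alternatives covered the block, scaling, dim probe sets, probe sets per gene, variance model, rounding, label sets, single pigs and GAPDH controls. The actin and EF1A controls were added after seeing the data.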

Additional observations from a re-analysis of the deposited data

Results flagged for a closer look

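In 10 of 42 groups of 9 values the sample at one end stood apart from the rest by Dixon's criterion, where chance gives about 1 in 20 groups, or 2.1. Pig 10 was the high sample in 5 of them. Its log2 intensity of PSMB8 was 8.99 at baseline (6.02 to 7.32 in the others) and 8.59 in failure (5.54 to 6.76). At baseline PSMB10 lay at 8.72 (7.63 to 7.98), PSME1 at 10.29 (9.25 to 9.75) and PSME2 at 10.53 (9.22 to 9.70). Pig 5 was the low sample in 4. In failure its PSMB5 lay at 9.76 (10.30 to 10.73 in the others) and its PSMB6 at 9.73 (10.28 to 10.82). Its PSME3 lay at 6.99 at baseline (7.56 to 7.99) and at 6.50 in failure (7.41 to 7.93). For PSMB7 at baseline pig 9 was the low sample, at 10.07 (10.29 to 10.47). The groups share the same arrays, so these values are not independent of each other.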

How the results depend on the processing

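The count of members past the threshold was 0 under every alternative fitted, with 0 to 26 probe sets past it. With no replicate block 0 members passed, and PSMB8 minus PSMB5 had an adjusted p of 0.923 by permutation. Members below 0 numbered 26 after quantile normalization, 19 with the GAPDH covariate, 24 without pig 5 and 31 without pig 9. Over the fits that left out 1 pig, PSMB10 minus PSMB7 ran from -0.0647 to 0.0934 and PSME1 minus PSME3 from -0.00369 to 0.0422. In the same fits PSMB10 ran from -0.0430 to 0.0511, PSME2 from -0.0645 to 0.00321, PSMB5 from -0.0594 to 0.0254 and PSMB7 from -0.0938 to 0.0216. PSMB8 ran from -0.32 to -0.26 (adjusted p 0.176 to 0.480 in limma). In label set 1 alone PSMB10 minus PSMB7 was -0.0224 and PSMB5 0.000650. In label set 2 alone PSMB10 was 0.0342, PSMG3 -0.0269 and PSMD13 -0.0516. PSMB10 was 0.00370 after quantile normalization. With the GAPDH covariate PSMB5 was 0.0616, PSMB6 0.0485 and PSMB7 0.0438, and with that of EF1A 0.0365, 0.0296 and 0.0213. PSMB5 was 0.0138 with the actin covariate, where PSMB8 had its lowest adjusted p (0.0534 in limma). The cause of these turns was not tested.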
